A study of Mus musculus with 4 samples.

Results

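The interferon-inducible GTPases and the genes of antigen presentation were followed in lung T helper 2 (Th2) cells. Members were the rows whose symbol named a Gbp, Irgm, Igtp, Iigp, Tgtp or H2 gene, together with B2m, Tap1, Tap2, Tapbp, Nlrc5, Ciita, Cd74, Psmb8, Psmb9 and Psmb10. The choice used symbols and no measured value, and it found 55 of the 11883 genes in the authors' deposited table. Of these, 16 were GTPases, 28 belonged to the class I pathway of the major histocompatibility complex (MHC) and 10 to its class II pathway. The remaining row, H2-Ke6, carries an H2 symbol but encodes a steroid dehydrogenase and no MHC chain.

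Live CD4+ T1ST/2+ cells were sorted from the lungs of C57BL/6 mice treated chronically with papain, a protease allergen from papaya. The control group was Gata3(fl/fl), in which Gata3, the gene for the transcription factor that directs Th2 cells, carries sites for Cre recombinase. The other group was Klrg1Cre Gata3(fl/fl), called Klrg1Cre here, which had the same floxed Gata3 and a Cre recombinase named for Klrg1. Each group had 2 of the 4 samples, chronic papain was common to all of them, and no group carried the Cre without floxed Gata3, so an effect of the Cre allele cannot be told apart from one of Gata3 loss. The file headers name the groups WT and ILC2 deficient (ILC2 are group 2 innate lymphoid cells), and WT was taken as the genotype without Cre. Whether the samples came from separate mice is not given in the sources used here, so the deposited p-values reflect the variation among these samples alone, part of which could be technical.

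Type I and type II interferons act through STAT and IRF transcription factors to switch on many genes, among which the guanylate-binding proteins (Gbp genes) and the immunity-related GTPases (IRG genes: Irgm1, Irgm2, Igtp, Iigp1, Tgtp1 and Tgtp2) are some of the most responsive. Their products gather on the vacuoles of intracellular microbes and help to break them open. Class I molecules, a heavy chain paired with beta-2 microglobulin, show peptides from inside the cell to CD8 T cells on almost every cell type. Class II molecules show peptides from taken-up material to CD4 T cells, and are made mainly by dendritic cells, B cells and macrophages.

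The promoters of these families carry different known elements, and they are shown here because the families are described apart below. RefSeq promoter windows (build GRCm38.p6, from 250 bases before to 50 after the start site, 300 bases in all) were found for 35 of the 55 members. The interferon-stimulated response element (ISRE), bound by IRF factors, was searched on both strands as GAAA and a second GAAA, 2 bases apart. The gamma-activated site (GAS), an element of the interferon-gamma response, was searched as TTCNNNGAA, which reads the same on both strands. All 10 GTPases with a window held the ISRE letters, against 3.99% of the 27025 genes with a window, and 6 of the 10 held the GAS letters, against 9.55%. In the lines below, capitals mark ISRE and GAS letters, and each stretch of 60 bases is given 5′ to 3′ on the strand of its gene with its GRCm38.p6 position.
Tgtp1, chr11:48992289-48992348, minus strand: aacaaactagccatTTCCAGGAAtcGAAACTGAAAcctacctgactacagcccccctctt
Tgtp2, chr11:49064248-49064307, minus strand: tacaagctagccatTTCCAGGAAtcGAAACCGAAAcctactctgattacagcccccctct
Igtp, chr11:58199497-58199556, plus strand: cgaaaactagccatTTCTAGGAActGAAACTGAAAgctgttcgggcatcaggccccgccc
Irgm2, chr11:58214888-58214947, plus strand: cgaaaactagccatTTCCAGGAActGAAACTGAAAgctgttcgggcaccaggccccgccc
Irgm1, chr11:48871416-48871475, minus strand: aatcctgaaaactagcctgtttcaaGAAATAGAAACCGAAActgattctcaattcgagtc
Gbp7, chr3:142530258-142530317, plus strand: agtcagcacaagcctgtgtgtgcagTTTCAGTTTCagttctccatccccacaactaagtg
Gbp3, chr3:142559974-142560033, plus strand: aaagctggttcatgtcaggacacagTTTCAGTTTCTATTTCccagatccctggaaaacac
Gbp2, chr3:142620579-142620638, plus strand: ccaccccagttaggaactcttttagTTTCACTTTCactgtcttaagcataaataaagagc
Gbp2b, chr3:142594685-142594744, plus strand: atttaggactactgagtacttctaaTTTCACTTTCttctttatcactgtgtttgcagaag
Gbp5, chr3:142496744-142496803, plus strand: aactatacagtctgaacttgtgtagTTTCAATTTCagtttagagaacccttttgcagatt
Tgtp1, Tgtp2, Igtp and Irgm2 shared 1 arrangement, in which the GAS letters began 11 bases before the ISRE letters. In Gbp3 and Irgm1, 2 overlapping ISRE matches made up the marked stretch.

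The MHC genes were searched for TGATTGG on both strands, the core of the Y box bound by the factor NF-Y, which cooperates with the class II transactivator Ciita and with its class I counterpart Nlrc5. It was found in 6 of 7 class II genes and 10 of 17 class I genes with a window, against 8.995% of all genes with one, and in 0 of the 10 GTPases. Of the class I genes, 3 held the ISRE letters (B2m, H2-T22 and H2-T23), and of the class II genes 0. Capitals mark the Y box core in the 6 class II promoters, where it began between positions -92 and -45 from the start site.
H2-Aa, chr17:34287859-34287918, minus strand: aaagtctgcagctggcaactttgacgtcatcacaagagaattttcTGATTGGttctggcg
H2-Eb1, chr17:34305761-34305820, plus strand: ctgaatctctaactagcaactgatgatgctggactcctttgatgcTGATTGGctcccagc
H2-Oa, chr17:34092289-34092348, plus strand: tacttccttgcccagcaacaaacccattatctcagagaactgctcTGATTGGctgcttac
H2-Ob, chr17:34238801-34238860, plus strand: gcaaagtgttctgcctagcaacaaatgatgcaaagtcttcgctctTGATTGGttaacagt
H2-DMb1, chr17:34153083-34153142, plus strand: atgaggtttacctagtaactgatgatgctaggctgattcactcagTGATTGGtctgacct
H2-DMb2, chr17:34145112-34145171, plus strand: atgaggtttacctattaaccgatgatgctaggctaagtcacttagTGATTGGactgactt
In the class I heavy chain promoters the same core lay in the reverse direction, as the 5 examples that follow show.
H2-K1, chr17:34000325-34000384, minus strand: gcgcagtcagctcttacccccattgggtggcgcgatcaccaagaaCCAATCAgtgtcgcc
H2-D1, chr17:35262996-35263055, plus strand: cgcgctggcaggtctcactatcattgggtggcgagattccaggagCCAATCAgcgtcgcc
H2-Q6, chr17:35424750-35424809, plus strand: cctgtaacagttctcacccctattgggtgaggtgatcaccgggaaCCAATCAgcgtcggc
H2-Q7, chr17:35439094-35439153, plus strand: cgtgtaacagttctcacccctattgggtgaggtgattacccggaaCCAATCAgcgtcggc
H2-T23, chr17:36032739-36032798, minus strand: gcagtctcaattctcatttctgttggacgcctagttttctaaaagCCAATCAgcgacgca
Such a match describes letters only and was not tested for binding.

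**Figure D1:**
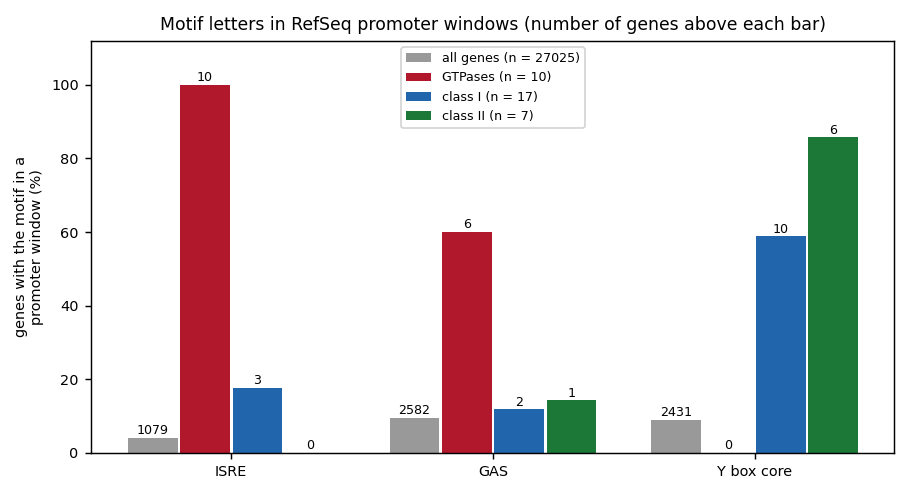
Share of genes (%, vertical axis) with each motif in a RefSeq promoter window, for all 27025 genes with a window (grey), 10 GTPases (red), 17 class I genes (blue) and 7 class II genes (green). The number above a bar counts the genes with the motif: the ISRE was found in all 10 GTPases, and the Y box core in 6 class II and 10 class I genes.

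Library totals, recovered from the step sizes of the deposited values, were 14564426 to 26019065 reads in Klrg1Cre and 31961572 to 33379572 in control, and the ribosomal RNA precursor Rn45s held 67.1% and 51.4% of them. Gata3 had a deposited mean of 293.9 CPM (read counts scaled to the library total) in Klrg1Cre against 221.4 CPM in control (adjusted p = 0.551), and since reads outside a floxed segment can remain, this does not check the labels. Klrg1, the gene the Cre is named for, was listed at 4.19 and 48.4 CPM in the authors' table. T cell markers were present, with 10 of 13 measured and Cd3e at deposited means of 76.6 and 73.0 CPM and Cd4 at deposited means of 167.6 and 150.1 CPM. Markers of antigen-presenting cells were present as well, and their values stand beside the class II genes below. In bulk RNA, fewer cells of a type and less RNA per cell cannot be told apart.

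In the authors' deposited table, 7 of all 11883 genes (0.0589%) passed an adjusted p of 0.05, and 0 of the 55 members did. The smallest adjusted p of a member was 0.265. At an unadjusted p below 0.05, 7 members had lower and 3 had higher deposited means in Klrg1Cre, where all genes gave 3.37% lower and 3.72% higher. As a second tool, limma called 7 of the 4242 genes it could fit and 0 of the 11 members among them. Of these 11 members, 3 had an unadjusted p below 0.05 in limma. The share of all fitted genes below that threshold was not counted. No member can therefore be said to have risen or fallen, and what follows gives sizes and their spread.

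The GTPases had mostly lower deposited means in Klrg1Cre. Of the 16 members, 11 were lower and 5 higher, where 49.4% of all genes were lower and 50.6% higher. Their median log2 ratio (Klrg1Cre over control) was -0.30, beside 0.01 for all genes, and ran from -1.42 for Tgtp1 to 1.82 for Gbp2b. At an unadjusted p below 0.05, 6 were lower and 0 higher, where all genes gave 3.37% lower and 3.72% higher.

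**Figure D2:**
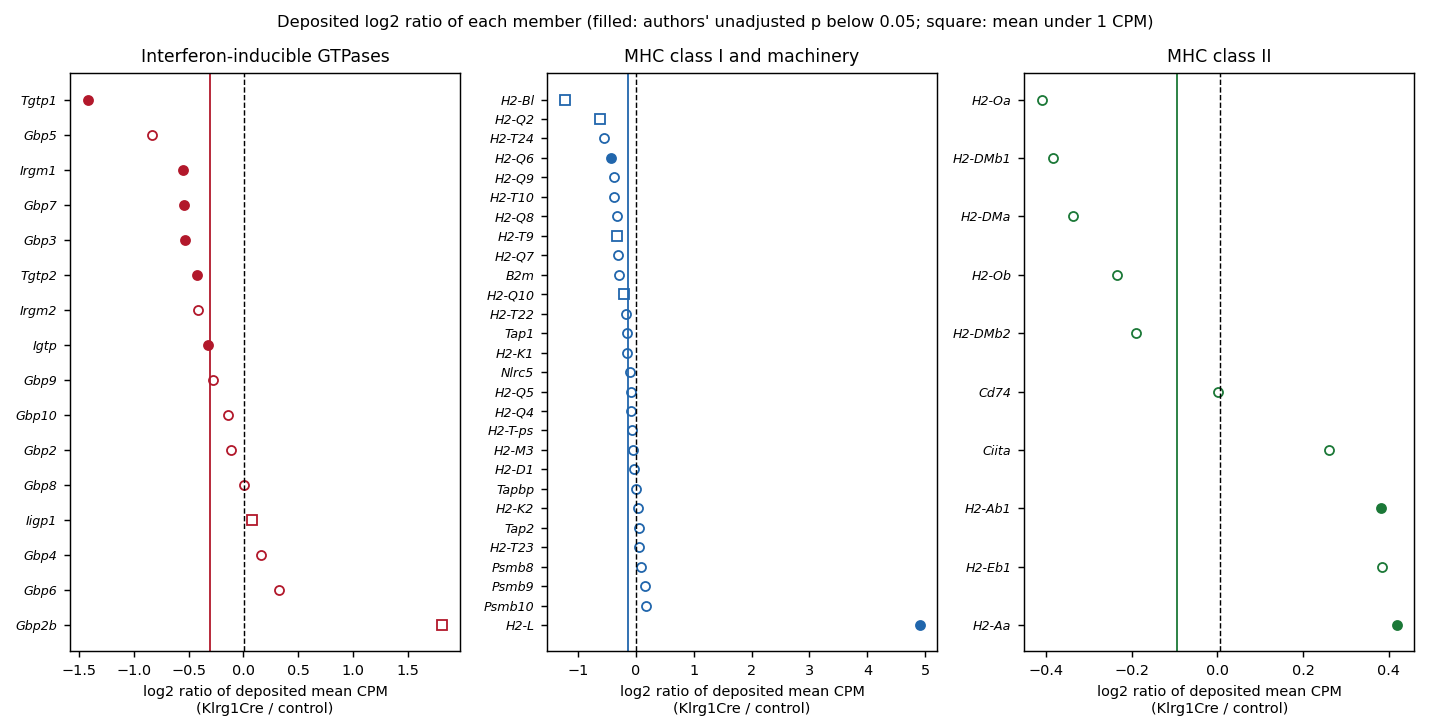
Log2 ratio of the deposited mean CPM, Klrg1Cre over control (horizontal axis), for 16 GTPases, 28 class I and 10 class II genes. Filled points have an unadjusted p below 0.05 in the authors' table and squares a mean under 1 CPM, the coloured line is the median of the class and the dashed line that of all genes (0.01). The median of the GTPases lies at -0.30, and H2-Aa, H2-Ab1 and H2-Eb1 lie at the high end of class II.

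Among the IRG genes, 5 of 6 had lower deposited means. Tgtp1 and Tgtp2 encode near-identical T cell-specific GTPases (89.4% of the 50-base stretches of the Tgtp1 transcript also occur in Tgtp2), so reads cannot be assigned to either with certainty. Tgtp1 had deposited means of 2.29 (Klrg1Cre) and 6.15 CPM (control), 2.68-fold lower (the authors' p = 0.00115, adjusted p = 0.265). For Tgtp2 the deposited means were 25.3 and 33.9 CPM, 1.34-fold lower (the authors' p = 0.0345, adjusted p = 0.660). Summed over both genes they were 27.6 and 40.1 CPM, 1.45-fold lower, so most of the size seen for Tgtp1 alone was not found in the sum. Tgtp1 made up 8.31% of this sum in Klrg1Cre and 15.3% in control.

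Irgm1, a regulator of the other IRG proteins that protects the cell's own membranes from them, had deposited means of 20.999 and 30.8 CPM, 1.47-fold lower (the authors' p = 0.0300, adjusted p = 0.638). Igtp, also known as Irgm3 and of the same regulator type, was listed at 39.4 and 49.5 CPM, 1.25-fold lower in the authors' table (the authors' p = 0.0378, adjusted p = 0.679). Irgm2, the remaining regulator, had 6.46 and 8.59 CPM there, without reaching an unadjusted p of 0.05. Iigp1, an effector that coats the vacuole of Toxoplasma, was low in both groups, with deposited means of 0.930 and 0.879 CPM. Per kilobase of transcript, Igtp was the most abundant GTPase in both groups, at 19.5 CPM per kb in Klrg1Cre and 24.5 in control, followed in control by Irgm1 (13.6, against 9.30 in Klrg1Cre) and Tgtp2 (12.1). In Klrg1Cre, Gbp6 (12.4, against 9.84 in control) came before both. Whether these neighbours differ in level beyond their spread was not tested, since none has values per library.

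The guanylate-binding protein genes lie in a cluster on chromosome 3 and another on chromosome 5. Of the 5 members on chromosome 3, 4 had lower deposited means, where 49.4% of all genes did, and the median log2 ratio was -0.54. At an unadjusted p below 0.05, 2 were lower and 0 higher, where all genes gave 3.37% lower and 3.72% higher. On chromosome 5, 2 of 5 had lower deposited means, the median was 0.01 and 0 had an unadjusted p below 0.05. This difference between the clusters was not tested.

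On chromosome 3, Gbp7 had deposited means of 36.1 (Klrg1Cre) and 52.7 CPM (control), 1.46-fold lower (the authors' p = 0.00246, adjusted p = 0.321). Gbp3, its neighbour, had deposited means of 10.6 and 15.4 CPM, 1.45-fold lower (the authors' p = 0.0354, adjusted p = 0.666). Gbp5, which promotes inflammasome assembly, had 1.44 and 2.57 CPM in the same table, 1.78-fold lower (the authors' p = 0.0542). It was the only GTPase whose means could be taken apart into libraries: 1.65 and 1.24 CPM in Klrg1Cre (43 and 18 reads, in the larger and the smaller library) against 2.61 and 2.53 CPM in control (87 and 81 reads). Both Klrg1Cre libraries lay below both control libraries, as they did for 18.3% of all genes with recovered libraries. In limma on log2(CPM + 1) the difference was -0.55 ± 0.24 (SE, adjusted p = 0.609), and the log2 ratio was -0.64 with the smaller Klrg1Cre library left out and -1.06 with the larger left out.

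Gbp2, one of the more strongly interferon-gamma-induced members, was close between groups at deposited means of 11.5 and 12.4 CPM. Gbp2b, formerly named Gbp1, had a higher deposited mean in Klrg1Cre, but at 0.443 against 0.126 CPM it was at a very low level in both groups. On chromosome 5, Gbp4 had deposited means of 25.02 and 22.4 CPM, Gbp8 7.20 and 7.16 CPM and Gbp9 11.2 and 13.5 CPM. Gbp6 and Gbp10 share sequence (62.3% of the 50-base stretches of Gbp6 occur in Gbp10, and 90.2% in the gene model Gm43302). Gbp6 was listed at 32.2 and 25.6 CPM and Gbp10 at 1.81 and 2.00 CPM, and their summed deposited means were 34.0 and 27.6 CPM. The 10 GTPases with a promoter window, all of which held ISRE letters, had log2 ratios from -1.42 to 1.82, with 9 of them lower. Gbp4, Gbp6, Gbp8, Gbp9, Gbp10 and Iigp1 had no window and were not searched. GTPases with and without ISRE letters therefore cannot be compared here.

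**Figure D3:**
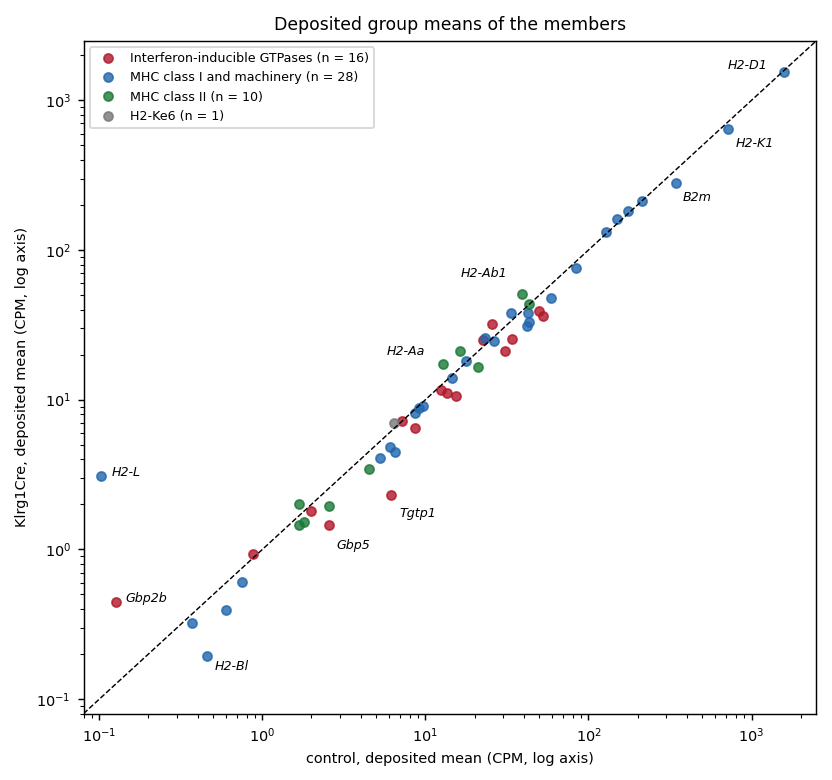
Deposited mean of each member in Klrg1Cre (vertical, CPM, log axis) against control (horizontal, CPM, log axis), coloured by class, with the dashed line marking equal means. H2-D1 (1553 and 1587 CPM) lies on the line, Tgtp1 (2.29 and 6.15 CPM) below it, H2-Ab1 (50.7 and 38.9 CPM) above it, and H2-L and Gbp2b stand off it at low levels.

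The listed genes of interferon signalling, which include feedback inhibitors, had mostly lower deposited means. Of 20 interferon receptor, signalling and regulator genes, 16 were lower and 4 higher, where 49.4% of all genes were lower. The median log2 ratio was -0.25. At an unadjusted p below 0.05, 2 were lower and 0 higher, where all genes gave 3.37% lower and 3.72% higher. Of these, Usp18, a feedback inhibitor of type I interferon signalling, had deposited means of 9.01 and 13.9 CPM (the authors' p = 0.0452, adjusted p = 0.698). Usp18 rested on 1 library, with 12.3 and 5.77 CPM in the larger and smaller Klrg1Cre libraries against 13.4 and 14.5 CPM in control. The most abundant genes of the list, Ifngr1, a chain of the interferon-gamma receptor, and the kinase gene Jak1, had deposited means of 155.4 against 166.7 CPM and 95.9 against 110.2 CPM. Ifng itself was listed at 0.578 and 0.278 CPM, and Irf1, the factor that interferon-gamma induces early, at 27.5 and 26.6 CPM. Of 5 further GTPase genes of the interferon response, 4 had lower deposited means. Among them Ifi47, another IRG gene, had 33.1 and 44.0 CPM (the authors' p = 0.0402, adjusted p = 0.691) and Gvin1 51.5 and 55.0 CPM.

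The class I pathway differed little in its abundant genes. Of 28 members, 20 had lower and 8 higher deposited means, and the median log2 ratio was -0.13. The 2 with an unadjusted p below 0.05 were H2-Q6 (lower) and H2-L (higher), where all genes gave 3.37% lower and 3.72% higher. The lower means were mostly those of the H2 rows, 17 of 20, with a median of -0.18. Of the 8 genes for the light chain, peptide supply, loading and regulation, 3 were lower and 5 higher, with a median of 0.03.

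The classical heavy chains, which present peptides to CD8 T cells, were the most abundant members. H2-D1 had deposited means of 1553 (Klrg1Cre) and 1587 CPM (control), a log2 ratio of -0.03 (the authors' p = 0.849, adjusted p = 0.976). H2-K1 had deposited means of 645.6 and 716.3 CPM, a log2 ratio of -0.15 (the authors' p = 0.283, adjusted p = 0.829). B2m, the light chain that all class I molecules share, had 282.4 and 342.9 CPM in the same table, 1.21-fold lower (the authors' p = 0.0972, adjusted p = 0.743). Its libraries held 284.8 and 280.0 CPM in Klrg1Cre (larger and smaller) against 299.7 and 386.2 CPM in control. Both Klrg1Cre values were below both control values, as for 18.3% of all genes with recovered libraries. The control libraries of B2m lay far apart, and in limma the difference was -0.27 ± 0.15 (SE, adjusted p = 0.719). The log2 ratio of the means was -0.28, and -0.086 without the smaller control library. Per kilobase of transcript, H2-D1 stood first at 738.8 CPM per kb in Klrg1Cre and 754.8 in control, followed by H2-K1 at 398.8 and 442.4 and B2m at 328.3 and 398.8. In control, H2-K1 and B2m differed by less than the control libraries of B2m did from each other.

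The non-classical heavy chains of the Q series all had lower deposited means, 8 of 8 with a median log2 ratio of -0.31. They share sequence with one another, so their reads are hard to separate. H2-Q6 had deposited means of 31.2 and 41.7 CPM, 1.34-fold lower (the authors' p = 0.0221, adjusted p = 0.612), and H2-Q7, which encodes a Qa-2 antigen, had 47.8 and 58.7 CPM (the authors' p = 0.0509). H2-Q9 was listed at 33.3 and 43.0 CPM, H2-Q8 at 4.84 and 6.06 CPM, H2-Q4 at 9.14 and 9.71 CPM and H2-Q5 at 8.11 and 8.62 CPM in the authors' table. H2-Q2 (0.391 and 0.600 CPM) and H2-Q10 (0.324 and 0.370 CPM) had deposited means under 1 CPM.

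In the T series, 5 of 6 rows had lower deposited means. H2-T23 encodes Qa-1, the ligand of the inhibitory receptor CD94/NKG2A, and had 181.1 and 174.2 CPM. H2-T22, a ligand of some gamma-delta T cell receptors, had deposited means of 37.9 and 42.4 CPM, and its close relative H2-T10 4.11 and 5.30 CPM, which together made 42.0 and 47.7 CPM. H2-T24 was listed at 4.50 and 6.54 CPM, H2-T9 at 0.605 and 0.755 CPM and the pseudogene H2-T-ps at 8.81 and 9.17 CPM. Outside these series, H2-M3, which presents formylated peptides of bacteria, had deposited means of 14.1 and 14.6 CPM, H2-K2 18.1 and 17.7 CPM and H2-Bl 0.195 and 0.455 CPM. H2-L had 3.08 and 0.103 CPM in the authors' table (the authors' p = 0.0296, adjusted p = 0.637). H2-L is known as a class I gene of other mouse haplotypes and is absent from that of C57BL/6, so its reads cannot be assigned with certainty.

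Peptide supply and loading were close between groups. The immunoproteasome subunits, which replace the constitutive catalytic subunits and favour peptides that fit class I, had slightly higher deposited means: Psmb8 160.5 and 150.6 CPM, Psmb9 25.7 and 23.1 CPM and Psmb10 37.7 and 33.4 CPM. By library, Psmb8 held 160.8 and 160.1 CPM in Klrg1Cre (larger and smaller) against 138.7 and 162.4 CPM in control. Psmb9 held 22.1 and 29.4 CPM against 22.1 and 24.1 CPM, and Psmb10 39.9 and 35.5 CPM against 36.9 and 29.9 CPM. The groups overlapped for all 3 subunits. Their constitutive counterparts had deposited means of 24.7 and 24.3 CPM for Psmb5, 47.6 and 48.6 CPM for Psmb6 and 7.35 and 8.67 CPM for Psmb7.

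The transporter genes Tap1 and Tap2, which carry peptides into the endoplasmic reticulum, had deposited means of 75.5 and 84.0 CPM and of 132.7 and 128.2 CPM. Tapbp, the gene of tapasin, which holds class I molecules at the transporter, had 213.9 and 212.8 CPM. Nlrc5, the transactivator of class I genes, had deposited means of 24.6 and 26.4 CPM, and its libraries (29.7 and 19.4 CPM in Klrg1Cre, 27.8 and 24.97 CPM in control) overlapped. Of 13 further genes of peptide supply and loading, 8 had lower and 5 higher deposited means, 0 had an unadjusted p below 0.05, and the median log2 ratio was -0.06. The most abundant were Pdia3, encoding a disulfide isomerase of the loading complex, at 86.0 and 95.0 CPM, and the chaperone gene Canx at 32.2 and 33.7 CPM.

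**Figure D4:**
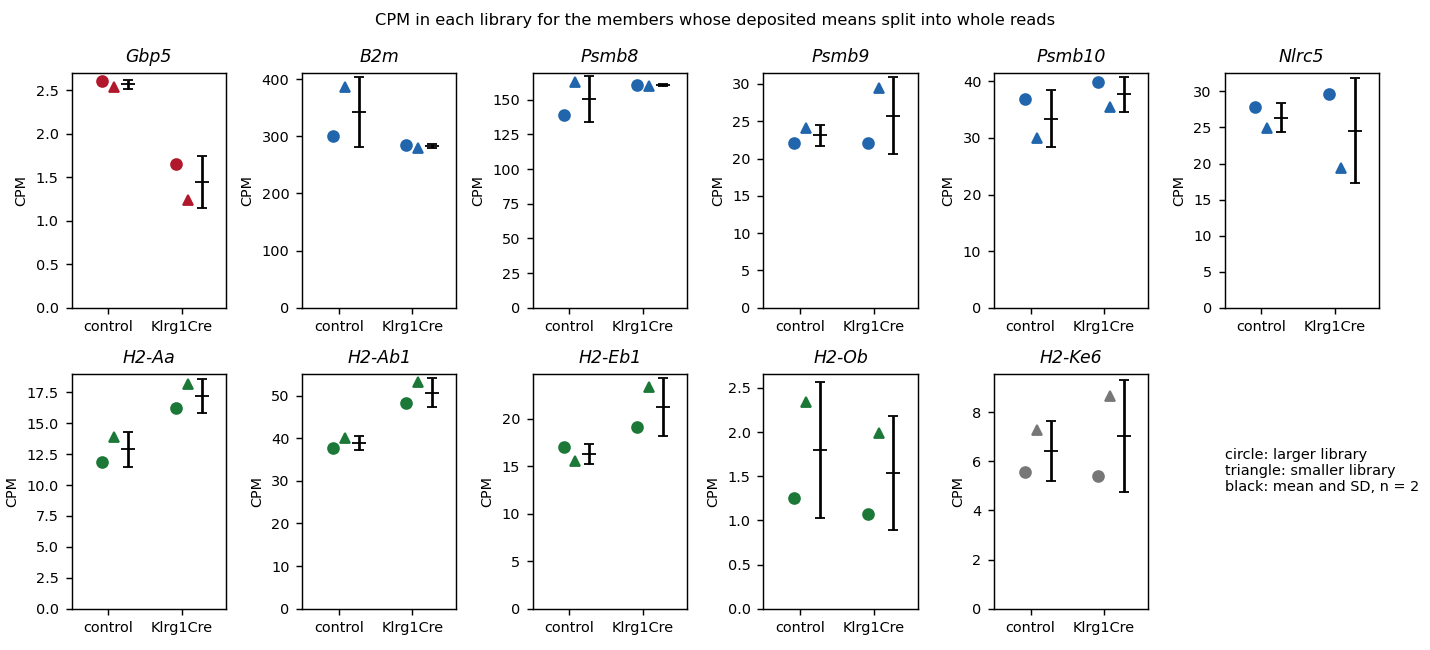
CPM in each library (vertical axis, from 0) for the 11 members whose deposited means could be taken apart into whole reads, with circles for the larger and triangles for the smaller library of a group and black marks for the mean and SD (n = 2). The Klrg1Cre libraries lie above both control libraries for H2-Aa, H2-Ab1 and H2-Eb1 and below them for Gbp5 and B2m, and the groups overlap for the other 6. Of all genes with recovered libraries, 19.3% lay above and 18.3% below in this way.

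The class II genes are given by role. The 3 chains of the peptide-presenting molecules had higher deposited means in Klrg1Cre, and the 5 chains of the peptide editors DM and DO had lower ones, while Cd74 was level. The median log2 ratio was 0.38 for the presenting chains, -0.34 for the editors and -0.09 for all 10 class II members. None passed adjustment, and 2 presenting chains had an unadjusted p below 0.05, both higher, as did 3.72% of all genes.

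H2-Ab1, the beta chain of I-A, had deposited means of 50.7 (Klrg1Cre) and 38.9 CPM (control), a log2 ratio of 0.38 (the authors' p = 0.0196, adjusted p = 0.610). The larger and smaller Klrg1Cre libraries held 48.2 and 53.1 CPM (1255 and 774 reads), and those of control 37.7 and 40.1 CPM (1257 and 1282 reads). H2-Aa, the alpha chain of I-A, had 17.2 and 12.9 CPM in the deposited table, a log2 ratio of 0.42 (the authors' p = 0.0414, adjusted p = 0.698). By library it stood at 16.2 and 18.2 CPM, against 11.9 and 13.9 CPM in control. H2-Eb1, the beta chain of I-E, whose alpha chain C57BL/6 mice do not make, had deposited means of 21.2 and 16.3 CPM, a log2 ratio of 0.38 (the authors' p = 0.0541, adjusted p = 0.705), and libraries of 19.1 and 23.3 CPM against 17.0 and 15.5 CPM.

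For all 3 chains both Klrg1Cre libraries lay above both control libraries, as they did for 19.3% of all genes with recovered libraries. The limma differences on log2(CPM + 1) were 0.37 ± 0.14 for H2-Ab1 (SE, adjusted p = 0.515), 0.39 ± 0.17 for H2-Aa (adjusted p = 0.606) and 0.36 ± 0.16 for H2-Eb1 (adjusted p = 0.650). The log2 ratio of the H2-Eb1 means was 0.23 when the smaller Klrg1Cre library was left out.

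The editors had lower deposited means throughout. H2-DMa, the alpha chain of DM, which exchanges the invariant chain remnant for peptide, had 16.6 and 20.96 CPM, 1.26-fold lower in the authors' table (the authors' p = 0.0577, adjusted p = 0.709). The DM beta chain genes share 27.2% of the 50-base stretches of H2-DMb1. H2-DMb1 had deposited means of 3.44 and 4.49 CPM and H2-DMb2 1.47 and 1.67 CPM, summing to 4.91 and 6.17 CPM. H2-Oa and H2-Ob, the chains of DO that restrains DM, had deposited means of 1.94 and 2.57 CPM and of 1.53 and 1.80 CPM. The libraries of H2-Ob overlapped (1.08 and 1.99 CPM in Klrg1Cre, 1.26 and 2.35 CPM in control). Cd74, the invariant chain that fills the groove of new class II molecules, had 43.4 CPM in both deposited means (the authors' p = 0.986, adjusted p = 0.997). Ciita, the transactivator of class II genes, had deposited means of 2.00 and 1.67 CPM. Per kilobase of transcript, H2-Ab1 stood at 41.8 CPM per kb in Klrg1Cre and 32.1 in control and Cd74 at 30.8 in both, followed by H2-Aa (15.3 and 11.4). H2-Eb1 (12.7 and 9.74) and H2-DMa (8.28 and 10.5) stood in opposite order in the groups.

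Of 13 measured genes for class II regulation and peptide processing, 8 had lower and 5 higher deposited means and 0 had an unadjusted p below 0.05, with a median log2 ratio of -0.08. The most abundant were the lysosomal protease genes Ctsb, at deposited means of 311 and 299.3 CPM, and Ctss, which trims the invariant chain, at 254.8 and 283.9 CPM. Both are strongly expressed in macrophages.

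Markers of other cell types stood at these levels beside the chains. All 15 macrophage markers were measured, 8 with higher and 7 with lower deposited means. Their sum was 1926 CPM in Klrg1Cre against 2723 CPM in control, or 802.2 and 790.8 CPM without the chitinase-like gene Chil3. The 7 macrophage markers with recovered libraries summed to 89.3 and 59.7 CPM in the larger and smaller Klrg1Cre libraries and to 75.4 and 77.5 CPM in control. The smaller Klrg1Cre library thus had the lowest macrophage sum and the highest H2-Aa, H2-Ab1 and H2-Eb1. Of the dendritic cell markers, 5 of 10 were measured and summed to 8.08 and 7.84 CPM in the deposited means. Of the B cell markers, 6 of 10 were measured and summed to 8.31 and 8.05 CPM, with Ms4a1 listed at 0 in Klrg1Cre. By library, 3 dendritic cell markers summed to 4.57 and 3.98 CPM (Klrg1Cre, larger and smaller) against 3.21 and 4.10 CPM, and 3 B cell markers to 0.461 and 0.755 CPM against 0.389 and 1.502 CPM. Epithelial markers, 7 of 8 measured, summed to 17.3 and 18.1 CPM in the deposited means. The 6 of them with recovered libraries summed to 12.95 and 20.9 CPM (Klrg1Cre) against 18.1 and 17.1 CPM (control). The larger Klrg1Cre library thus had the lowest epithelial sum and the smaller Klrg1Cre library the highest. All 7 ILC2 markers were measured, 4 with lower and 3 with higher deposited means. An unadjusted p below 0.05 was reached by 4: Klrg1 and Arg1 were lower, Gata3 and Nmur1 higher. At that threshold, 3.37% of all genes were lower and 3.72% higher. Of these 4 markers, Gata3 is the floxed gene and Klrg1 the one the Cre is named for. The sum over all 7 ILC2 markers was 434.8 CPM in Klrg1Cre and 455.1 CPM in control. The 4 with recovered libraries, Klrg1, Arg1, Areg and Il17rb, summed to 89.0 and 59.1 CPM against 165.6 and 161.3 CPM. The lower sum in both Klrg1Cre libraries came from Klrg1, the gene the Cre is named for, and Arg1. For each of these both Klrg1Cre libraries lay below both control libraries, as for 18.3% of all genes with recovered libraries. The groups overlapped for Areg (2.65 and 5.01 CPM against 1.32 and 3.19 CPM). They also overlapped for Il17rb (14.1 and 10.1 CPM against 15.8 and 12.6 CPM). Arg1, which encodes arginase 1 and is expressed by ILC2 and by macrophages, had deposited means of 53.9 and 98.5 CPM, 1.83-fold lower (the authors' p = 0.00493, adjusted p = 0.412). Nmur1, the neuromedin U receptor gene, was listed at 7.73 and 2.40 CPM, a ratio of 3.22 (the authors' p = 0.00010025, adjusted p = 0.0701). The part of macrophages, dendritic cells, B cells, epithelium and ILC2 in the members' values was not tested.

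H2-Ke6, the row that encodes no MHC chain, had deposited means of 7.04 and 6.43 CPM (adjusted p = 0.956). Its libraries, 5.42 and 8.65 CPM in Klrg1Cre against 5.57 and 7.29 CPM in control, overlapped.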

How the data were processed

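RNA-seq of 4 samples was analysed from 1 table of the authors' own comparison, without values per sample. STAR and Partek (no versions) and build mm9 are named per the submitters' processing notes. The counting method is not given in the sources used here. The deposited group means are in CPM with an offset of 0.0001 CPM, the deposited ratio is their quotient, and the deposited fold change is that ratio with a sign. The deposited signal per gene (total counts) was in every row 2 times the sum of the group means, and it was left unused. The deposited p-values and adjusted p-values come from a model of the authors not given in the sources used here, and the adjusted values equalled a Benjamini-Hochberg adjustment over all 11883 genes.

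Direction is Klrg1Cre over control. Means were split into whole reads of 2 libraries where exactly 1 split held to within 1e-09 reads, which gave 5351 genes (45.0%) in both groups and 11 members. Which library is which sample is unknown. For the other genes the depth behind each value is known only as the library total, and no interval is given. limma 3.58.1 (R 4.3.3, trended variance, log2(CPM + 1)) was run on the 4242 split genes whose mean reached 1 CPM and adjusted over them. Too few genes split for a count model.

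Shared sequence was measured as 50-base stretches of GENCODE M21 transcripts (GRCm38), which also gave chromosomes and lengths. Promoter windows came from RefSeq (GRCm38.p6). The authors' values have no coordinates. Every member is named, with full statistics for those with an unadjusted p below 0.05 and the 3 most abundant per class. The members and lists were chosen with earlier results of these data known. Alternatives covered pseudocounts, low-value filters, scaling, left-out libraries and summed pairs. Some genes of the lists are not reported here by name.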

Additional observations from a re-analysis of the deposited data

How the results depend on the processing

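The count of 0 called members held when the authors' p-values were adjusted over genes whose mean reached 1 or 5 CPM, in limma with a pseudocount of 1 or 5 CPM, and in limma without each library in turn. Left-out libraries could be computed only for members with whole reads. The median log2 ratio of the GTPases moved from -0.30 to -0.83 over such members, which was Gbp5 alone. Without 1 library, the log2 ratio of Gbp5 lay between -1.06 and -0.64. The class I median moved from -0.13 to 0.092 over its 5 members with whole reads, and over these 5 lay between -0.017 and 0.095 without 1 library. The class II median moved from -0.09 to 0.38 over members whose mean reached 5 CPM and to 0.38 over its 4 members with whole reads. Over these 4 it lay between 0.27 and 0.47 without 1 library. These subsets hold fewer genes by construction. Summing pairs that share sequence, chosen after seeing the data, gave -0.30, -0.10 and 0.00 for the medians of GTPases, class I and class II. With a pseudocount of 5 CPM these medians were -0.21, -0.06 and -0.02. That pseudocount took the log2 ratio of Tgtp1 from -1.42 to -0.61 and that of Gbp5 from -0.83 to -0.23. It turned the direction of 0 members. Scaling to the listed genes without Rn45s shifted every log2 ratio by -0.03 and turned the direction of Cd74, Gbp8 and Tapbp, all near 0. Leaving out 1 library turned the direction of H2-Ob, Psmb8, Psmb9, Nlrc5 and H2-Ke6, whose groups overlap. No paired analysis was possible because the table holds no sample columns that carry the replicate numbers. Depth limits the members under 1 CPM, 6 in all, whose ratios rest on few reads.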

Other observations

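Whether a member's mean split into whole reads went with how much sequence it shares. Of the 11 members that split in both groups, 9 had no 50-base stretch in common with another gene's transcript, and of 40 others with a transcript, 5 had none. The others shared a median of 10.2% of their 50-base stretches, up to 91.4% for Tgtp1. Values per library were found for Gbp5 alone among the GTPases and for no class I heavy chain. Whether shared sequence was the reason was not tested.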
